A study of Mus musculus with 6 samples.

Results

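The 1786 regions described here are accessible chromatin peaks that lie in introns of mouse genes and more than 100 kb from any annotated transcription start site. They were taken from a consensus list of 51775 peaks by the deposited annotation alone, as every peak whose class was intron and whose distance to the nearest start site exceeded 100 kb in either direction. They make up 3.45% of all peaks and 8.28% of the 21576 intronic peaks, and they fall in 535 host genes, a host being the gene whose transcript holds the intron. The rule used no measured value. The assay was ATAC-seq, which reads out open chromatin through a transposase that cuts exposed DNA and leaves sequencing adapters there. It was run on natural killer (NK) cells sorted from the spleen as CD3- CD5- NK1.1+ NKp46+ cells. The cells came from Rroid-deficient mice and from wildtype mice, both of the C57BL6 background strain. There were 3 libraries per genotype, and 50000 cells per genotype were used. The labels give neither age nor sex, do not describe the Rroid allele, and leave unsaid whether the replicates are different mice. The tests therefore rest on the spread among these libraries, which may be technical only.

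Long genes carry most of their sequence in introns, and introns of long genes often hold enhancers, stretches of DNA at which transcription factors open the chromatin and act on promoters at a distance. Such an element can act on the gene it sits in or on a neighbour beyond that gene's ends, so a host gene is an address and not a known target. The Rroid locus makes a long noncoding RNA and lies close to Id2, and Id2 is a repressor that binds E proteins and keeps them off their E-box sites in NK cells and other innate lymphoid cells.

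Each value below is the authors' normalized signal of a whole peak in 1 library. Values are given in the order Rroid-deficient libraries 4, 5 and 6, then wildtype libraries 1, 2 and 3, numbered as in the deposited columns. The reads in peaks that these values stand for ranged from 27572006 to 41167610 in the Rroid-deficient libraries and from 39847736 to 47939665 in the wildtype libraries. The median deep intronic peak held 86 to 95 reads per Rroid-deficient library and 106 to 116.5 reads per wildtype library. Deep intronic peaks took 1.22 to 1.36% of the reads in peaks of the Rroid-deficient libraries and 1.22 to 1.29% of those of the wildtype libraries, and the groups overlapped. All 8 NK cell marker genes had a peak within 1 kb of their start, with a summed signal of 25383 to 29393 in Rroid-deficient and 29893 to 33129 in wildtype libraries, and 4 of these peaks were called lower. Of 8 T cell markers 3 had such a peak, with a summed signal of 540 to 578 in Rroid-deficient and 139 to 235 in wildtype libraries, and 2 of them, at Cd3g and Cd5, were called higher. Cd3e, Cd3d, Cd4, Cd8a and Cd6 had no such peak. The part of these markers in the results below was not tested, and in sorted bulk cells more cells of a type and more signal per cell cannot be told apart.

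Deep intronic peaks were narrower and lower than other peaks. Their median width was 825 bp, against 906 bp for intronic peaks within 100 kb of a start site and 964 bp for all peaks. Per kb of peak, the mean signal over the 6 libraries had a median of 113 in deep intronic peaks, 180.5 in nearer intronic peaks and 203 over all peaks. The median distance to the nearest start site was 142 kb and the largest was 877 kb, 981 peaks lay between 100 and 150 kb, and 151 lay beyond 300 kb. The first intron held 8.23% of them, against 41.9% of nearer intronic peaks. The peak's own annotation named a repeat for 18.3% of deep intronic peaks, 19.1% of nearer intronic peaks and 16.5% of all peaks, and a CpG island for 0.392% of deep intronic and 4.35% of all peaks. The nearest start site belonged to the host for 61.1% of deep intronic peaks, against 76.3% of nearer intronic peaks, and to another gene for the other 695. At the edge of the rule, the peak just inside, in Palld at 100.009 kb, had values of 46.4, 36.2 and 31.4 in Rroid-deficient and 31.2, 20.2 and 45.9 in wildtype libraries, and the peak just outside, in App at 99.972 kb, had 156, 89.5 and 129 in Rroid-deficient and 124, 79.8 and 115 in wildtype libraries.

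Deep intronic peaks changed in both directions. With limma on log2 of the value plus 1, adjusted by Benjamini-Hochberg over all 51775 peaks, 291 deep intronic peaks were called higher in Rroid-deficient cells and 239 lower at an adjusted p under 0.05, and 1256 were not called. This is 16.3% higher and 13.4% lower, beside 13.8% and 12.1% of all peaks. Intronic peaks within 100 kb of a start site had 14.3% higher and 12.7% lower. Intergenic peaks over 100 kb from one had 14.1% higher and 19.1% lower, so that 33.2% of them were called, beside 29.7% of deep intronic peaks. The median log2 fold change was -0.01 over the deep intronic peaks and -0.01 over all peaks. Values of the groups did not overlap at 379 of the 1786 deep intronic peaks with Rroid deficient above and 365 below. Over all 51775 peaks this was so at 10373 (20.0%) and 10412 (20.1%). Among called peaks it was so at 510 of 530, beside 12844 of 13383 over all peaks. At least 2-fold changes were called at 122 of the 1786 deep intronic peaks higher and 80 lower, beside 2641 (5.1%) and 991 (1.91%) of all 51775 peaks. The median log2 fold change of the called peaks was 0.92 for higher and -0.81 for lower ones, against 0.85 and -0.59 over all called peaks.

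Because deep intronic peaks are lower than others, they were also set beside all peaks of the same level, in 4 equal bands of mean signal. In the lowest band 11.7% of 728 deep intronic peaks were called higher, beside 11.9% of all peaks, and 6.04% lower, beside 3.53%. In band 2, of 542 deep intronic peaks, 17.3% were called higher, beside 16.7%, and 13.8% lower, beside 9.42%. In band 3, of 350 deep intronic peaks, 24.3% were called higher, beside 18.5%, and 22.3% lower, beside 18.4%. In the highest band 16.3% of 166 were called higher, beside 7.98%, and 25.3% lower, beside 17.0%. The median log2 fold change of lower calls in bands 1 to 4 was -1.11, -0.88, -0.70 and -0.52, beside -1.07, -0.78, -0.60 and -0.38 of all peaks. For higher calls it was 1.14, 0.92, 0.80 and 0.49, beside 1.14, 0.90, 0.72 and 0.46. The differences between these shares and medians were not tested. All peaks include other classes, such as start-site peaks, and nearer intronic and intergenic peaks were not split by level. The bands therefore cannot show whether these shares are particular to deep introns. Shares also varied by place. Of the 147 peaks in first introns 25 (17.0%) were called higher and 32 (21.8%) lower, beside 13.8% and 12.1% of all peaks. At least 2-fold lower were 20 of them, beside 1.91% of all peaks. Neighbouring peaks of 1 gene weigh in such counts: Ror1 alone gave 10 of the 32 and 10 of the 20. On chromosome 15 there were 26 higher and 7 lower of 110 peaks and on chromosome 2 there were 21 and 5 of 109. Chromosome 4 had 12 higher and 26 lower of 101 and chromosome 14 had 9 and 18 of 96. These chromosomes were picked for their uneven counts after seeing values, and shares of all peaks by chromosome are not given. Single genes weigh here too. Ror1 gave 10 and Tox 4 of the lower calls on chromosome 4. Diaph3 gave 6 and Lmo7 3 of those on chromosome 14. Asap1 and Tbc1d22a each gave 4 of the higher calls on chromosome 15.

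**Figure D1:**
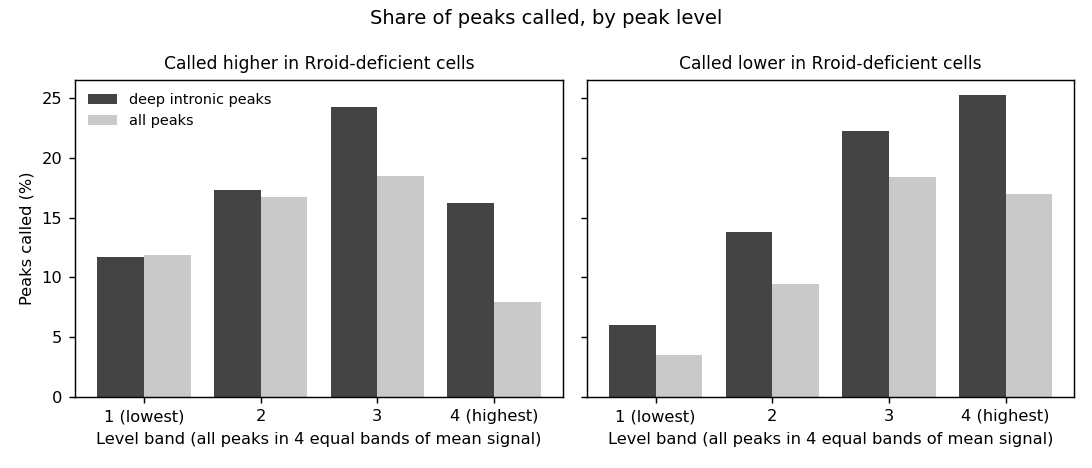
Share of peaks called higher (left) and lower (right) in Rroid-deficient cells (limma, adjusted p under 0.05) in 4 equal bands of mean signal, for deep intronic peaks and for all peaks. In the highest band 16.3% of deep intronic peaks were called higher and 25.3% lower, above the 7.98% and 17.0% of all peaks. All peaks include other classes, such as start-site peaks.

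The counts also changed with the libraries used. Rroid-deficient libraries 4 and 6 were the shallowest, and the deep intronic peaks of the lowest band deviated from their 6-library mean by a median of 0.27 and 0.14 (log2) in them, against -0.19 in Rroid-deficient library 5 and 0.03, -0.15 and 0.04 in wildtype libraries 1, 2 and 3. Without libraries 4 and 6, an alternative added after the data were seen, 134 deep intronic peaks were called higher and 209 lower, so that higher calls were 39.1% of the calls and not 54.9%. The lone Rroid-deficient library is then assumed to vary like the others. Without library 5 instead, 317 were called higher and 212 lower, so that higher calls were 59.9% of the calls. They were 48.3% without library 4 alone and 54.2% without library 6 alone. Depth and other traits of single libraries cannot be told apart here, and the part of depth in these counts was not tested.

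Hosts were counted by the direction of their called peaks. Of the 535 hosts 268 had at least 1 called deep intronic peak, and 126 had 2 or more, of which 54 had all of them higher, 45 all lower and 27 both. With 3 or more called peaks in 1 direction and none in the other, 25 hosts were higher, holding 94 called peaks of 177. Another 21 were lower, holding 84 of 159. Only the 242 hosts with 3 or more deep intronic peaks could be counted so. The shares of peaks called in the counted hosts are high by this choice. Every deep intronic peak was called in 1 of the higher hosts, Kcnh1, which encodes a potassium channel, and in several of the lower hosts, among them Ror1, Tgfbr3, Col23a1 and Lhfp. The number of higher hosts was 15 without Rroid-deficient library 4, 16 without library 6, 13 without wildtype library 2 and 6 without both libraries 4 and 6, these 6 being Maml3, Runx2, Prkch, Mthfd1l, Unc79 and Asap1. The number of lower hosts was 14 to 24 when 1 library was left out and 20 without libraries 4 and 6.

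**Figure D2:**
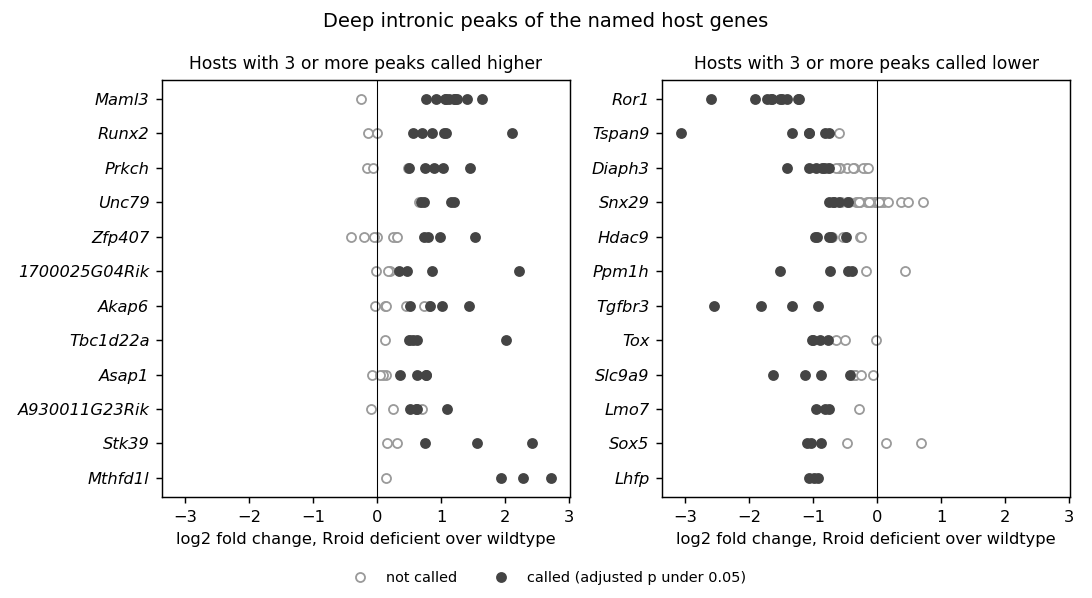
Log2 fold change, Rroid deficient over wildtype, of every deep intronic peak of the 12 named hosts per direction, with filled points for called peaks. Maml3 has 10 filled points of 11 above 0, and all 10 peaks of Ror1 lie below 0.

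Stk39 and Ror1 are the examples, higher and lower, of a named host whose start-site peak was called in the same direction as its deep ones, and their promoter sequences are shown so that these start sites can be compared. The sequences are from RefSeq on build GRCm38.p6, run from 250 bases before to 50 bases after the start, and were searched on both strands for the E-box CANNTG and for TGTGGT, the core bound by Runx proteins. Capitals mark TGTGGT.
Stk39, chr2:68471932-68472231, minus strand: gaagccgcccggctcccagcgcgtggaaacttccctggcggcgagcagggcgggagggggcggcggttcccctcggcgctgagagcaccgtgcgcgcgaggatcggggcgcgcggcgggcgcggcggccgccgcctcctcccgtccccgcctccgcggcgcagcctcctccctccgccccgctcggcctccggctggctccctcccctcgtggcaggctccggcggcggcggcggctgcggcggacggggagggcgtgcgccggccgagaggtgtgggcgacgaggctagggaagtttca
Ror1, chr4:100095541-100095840, plus strand: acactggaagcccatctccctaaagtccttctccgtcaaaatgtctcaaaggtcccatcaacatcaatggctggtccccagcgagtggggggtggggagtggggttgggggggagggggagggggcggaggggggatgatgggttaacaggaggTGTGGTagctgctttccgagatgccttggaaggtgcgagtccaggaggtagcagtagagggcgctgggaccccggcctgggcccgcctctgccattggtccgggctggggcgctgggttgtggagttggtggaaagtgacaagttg
Neither window holds an E-box and only that of Ror1 holds the Runx core, while 72.3% of the 32851 promoters in the table hold CANNTG and 16.8% hold TGTGGT. Peak positions below are on mm9 and are not on the scale of these coordinates.

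Among the higher hosts Maml3, a coactivator of Notch signalling, had the most calls. Of its 11 deep intronic peaks 10 were called higher, and of all 27 peaks annotated in the gene 20 were higher and none lower. The peaks without a call all lay between 1.45 and 105 kb from the Maml3 start site, and the called ones lay 97.2 kb or farther from it. Among the deep peaks the largest change was at chr3:51577481-51580667 in intron 2, with 282, 288 and 352 in Rroid-deficient cells, against 133, 79.0 and 88.9 in wildtype cells (log2 fold change 1.64 ± 0.20 SE, adjusted p = 1.27e-05 by limma). The peak at chr3:51592545-51593627 had 353, 416 and 516 in Rroid-deficient cells, against 254, 187 and 153 in wildtype cells (log2 fold change 1.12 ± 0.18 SE, adjusted p = 2.49e-04 by limma). Both groups were fully apart at these peaks. The 11th peak, at chr3:51803691-51804640 in intron 1, has the largest signal of them and had 1923, 2037 and 2017 in Rroid-deficient cells, against 2051, 2642 and 2476 in wildtype cells without a call (log2 fold change -0.25 ± 0.10 SE, adjusted p = 0.0644 by limma). It was called lower when wildtype library 1 was left out (log2 fold change -0.36, adjusted p = 0.0102 by limma), and Maml3 is then no longer a concordant host. Of the other peaks 8 to 10 kept their call when any 1 library was left out, and 4 did without libraries 4 and 6. The nearest start site was that of Mgst2, a glutathione transferase gene, for 8 of the 10 called peaks.

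Runx2, a Runt family transcription factor best known for bone formation and also present in lymphocytes, had 6 of 8 deep intronic peaks called higher. The strongest, at chr17:44673307-44674085, had 374, 353 and 261 in Rroid-deficient cells, against 93.5, 90.7 and 48.8 in wildtype cells (log2 fold change 2.11 ± 0.23 SE, adjusted p = 4.80e-06 by limma). The called one with the largest signal, at chr17:44692742-44694792, had 1155, 1346 and 1107 in Rroid-deficient cells, against 832, 772 and 631 in wildtype cells (log2 fold change 0.70 ± 0.12 SE, adjusted p = 3.71e-04 by limma). The lowest Rroid-deficient value stood above the highest wildtype value at both. All 6 calls held with any 1 library left out. The Runx2 start-site peak averaged 2379 ± 153 in Rroid-deficient cells and 2666 ± 151 in wildtype cells (SD, n = 3 each) and was not called (log2 fold change -0.16, adjusted p = 0.175 by limma).

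Prkch encodes protein kinase C eta, a signalling kinase. Of its 8 deep intronic peaks 5 were called higher, in introns 2, 6 and 9 within 34.8 kb. The peak at chr12:74799156-74801115 had 2345, 2466 and 2185 in Rroid-deficient cells, against 1223, 1162 and 1050.0 in wildtype cells (log2 fold change 1.03 ± 0.09 SE, adjusted p = 6.41e-07 by limma). The peak at chr12:74821217-74822205 had 918, 975 and 897 in Rroid-deficient cells, against 351, 354 and 309.6 in wildtype cells (log2 fold change 1.46 ± 0.12 SE, adjusted p = 1.26e-07 by limma). The summed signal of the 8 peaks averaged 8682 ± 574 in Rroid-deficient cells and 5367 ± 362 in wildtype cells (SD, n = 3 each), a ratio of 1.62. The rest of the gene did not share this direction: of the 22 peaks annotated in Prkch 6 were higher and 6 lower. The 6 lower ones lay within 72.0 kb of the start site, where 1 peak was higher at 46.1 kb, and the called deep ones lay from 102 to 136 kb. The start-site peak, with 2673, 2967 and 2569 in Rroid-deficient cells, against 3182, 3408 and 3255 in wildtype cells, was called lower (log2 fold change -0.26 ± 0.08 SE, adjusted p = 0.0275 by limma).

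**Figure D3:**
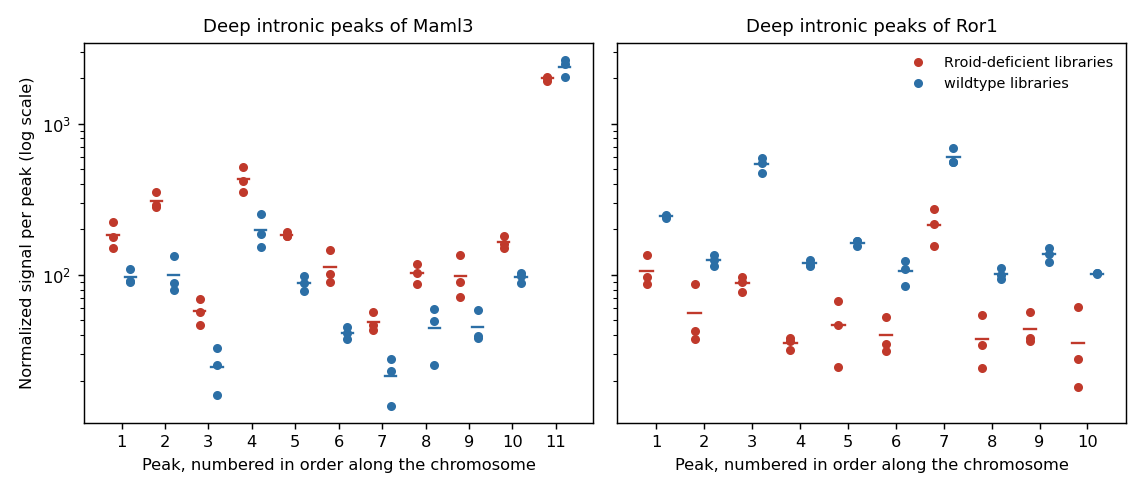
Normalized signal per library, on a log axis, at the 11 deep intronic peaks of Maml3 (left) and the 10 of Ror1 (right), with each peak's Rroid-deficient libraries left of its wildtype libraries and bars at group means. Peak 2 of Maml3 has 282 to 352 in Rroid-deficient and 79.0 to 133 in wildtype libraries, and the Rroid-deficient points lie lower at every Ror1 peak.

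Stk39, which encodes the kinase SPAK that acts on ion cotransporters, was higher along most of its length. Of its 5 deep intronic peaks 3 were called higher, and of all 12 peaks in the gene 9 were higher and none lower. The peak at chr2:68134294-68135463 in intron 14 had 790.4, 657 and 652 in Rroid-deficient cells, against 167, 125 and 104 in wildtype cells (log2 fold change 2.42 ± 0.17 SE, adjusted p = 3.45e-08 by limma). Each Rroid-deficient value there was above 3 times any wildtype value. The start-site peak, at the promoter printed above, had 2521, 2657 and 2381 in Rroid-deficient cells, against 1904, 1823 and 1652 in wildtype cells (log2 fold change 0.49 ± 0.09 SE, adjusted p = 6.01e-04 by limma). Without libraries 4 and 6 only 2 of the 3 deep calls were left.

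Mthfd1l, an enzyme of mitochondrial one-carbon metabolism, had the highest ratio of summed signal among the hosts with concordant calls. Its 4 deep intronic peaks together averaged 1082 ± 63.6 in Rroid-deficient cells and 319 ± 18.7 in wildtype cells (SD, n = 3 each), a ratio of 3.40. The peak at chr10:6243700-6244403 had 361, 330.3 and 346 in Rroid-deficient cells, against 49.9, 71.4 and 38.1 in wildtype cells (log2 fold change 2.72 ± 0.22 SE, adjusted p = 1.28e-07 by limma). The neighbour at chr10:6245939-6246770 had 455, 442 and 361 in Rroid-deficient cells, against 97.9, 71.4 and 86.9 in wildtype cells (log2 fold change 2.29 ± 0.17 SE, adjusted p = 8.74e-08 by limma). Both lie in intron 24 with a further called peak, and the groups were far apart at all 3. The start-site peak averaged 5022 ± 132 in Rroid-deficient cells and 4866 ± 384 in wildtype cells (SD, n = 3 each) and was not called (log2 fold change 0.05, adjusted p = 0.695 by limma).

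The other named higher hosts had 4 calls each. Unc79, part of a sodium leak channel complex, had 4 of 5 peaks called, among them chr12:104296736-104298080 with 934, 945 and 739.9 in Rroid-deficient cells, against 418, 344 and 375 in wildtype cells (log2 fold change 1.20 ± 0.13 SE, adjusted p = 3.51e-06 by limma). Akap6, an anchor of protein kinase A, had 4 of 10, and its peak at chr12:53925583-53926289 had 252, 219.9 and 227 in Rroid-deficient cells, against 89.9, 87.4 and 78.1 in wildtype cells (log2 fold change 1.44 ± 0.18 SE, adjusted p = 1.46e-05 by limma). Asap1, which acts on Arf GTPases, had 4 of 8, led by the peak with 765, 846 and 848 in Rroid-deficient cells, against 504, 479 and 459 in wildtype cells (log2 fold change 0.77 ± 0.11 SE, adjusted p = 7.05e-05 by limma). Zfp407, a zinc finger gene, had 4 of 11, Tbc1d22a, of a family that acts on Rab GTPases, 4 of 6, and the little described genes 1700025G04Rik and A930011G23Rik 4 of 7 each. The 1700025G04Rik peak at chr1:153815208-153815932 had 171, 157 and 149.9 in Rroid-deficient cells, against 39.2, 23.5 and 41.0 in wildtype cells (log2 fold change 2.21 ± 0.26 SE, adjusted p = 7.65e-06 by limma). That of Tbc1d22a at chr15:86192396-86193293 had 123, 98.0 and 116 in Rroid-deficient cells, against 24.0, 31.9 and 25.4 in wildtype cells (log2 fold change 2.02 ± 0.26 SE, adjusted p = 2.73e-05 by limma). Some of these hosts had under 3 calls left without 1 library: Asap1 1 to 2 without Rroid-deficient library 5 or 6 or wildtype library 2, 1700025G04Rik 2 without Rroid-deficient library 5 or wildtype library 2 or 3, A930011G23Rik 1 without Rroid-deficient library 4 and fewer than 3 without wildtype library 2, and Tbc1d22a 2 without Rroid-deficient library 6. The start-site peak of 1700025G04Rik was called lower (log2 fold change -0.48 ± 0.08 SE, adjusted p = 4.15e-04 by limma), against its deep peaks.

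Among the lower hosts Ror1, a receptor tyrosine kinase-like protein that binds Wnt5a, was lower throughout. All 10 deep intronic peaks, spread over 99.3 kb of intron 1, and all 13 peaks annotated in the gene were called lower. The peak at chr4:99891527-99892819 had 96.8, 90.4 and 77.4 in Rroid-deficient cells, against 591, 548 and 474 in wildtype cells (log2 fold change -2.59 ± 0.16 SE, adjusted p = 1.16e-08 by limma). The peak at chr4:99902682-99903551 had 272, 217 and 155 in Rroid-deficient cells, against 694, 558 and 559.7 in wildtype cells (log2 fold change -1.52 ± 0.18 SE, adjusted p = 8.10e-06 by limma). Every wildtype value was at least 2 times the highest Rroid-deficient value at both. The 10 peaks together averaged 704 ± 168 in Rroid-deficient cells and 2238 ± 170 in wildtype cells (SD, n = 3 each), a ratio of 0.314. The start-site peak, at the other promoter printed above, had 377, 273 and 303 in Rroid-deficient cells, against 754, 665 and 637 in wildtype cells (log2 fold change -1.12 ± 0.14 SE, adjusted p = 1.54e-05 by limma). All 10 deep calls held with any 1 library left out and without libraries 4 and 6.

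Tspan9, a tetraspanin of the cell membrane, had 6 of 7 deep intronic peaks called lower. The peak at chr6:127952441-127953222 in intron 3 had the lowest log2 fold change of all deep intronic peaks, with 87.5, 82.8 and 119.7 in Rroid-deficient cells, against 910.0, 728 and 799 in wildtype cells (log2 fold change -3.07 ± 0.16 SE, adjusted p = 2.44e-09 by limma). Another peak of the same intron, at chr6:127941625-127942506, had 389.9, 436 and 399 in Rroid-deficient cells, against 959, 809 and 805 in wildtype cells (log2 fold change -1.07 ± 0.12 SE, adjusted p = 4.94e-06 by limma). The groups did not overlap at these peaks. For 4 of the peaks, all called lower, the nearest start site was that of Tspan11. The Tspan9 start-site peak had 328, 322 and 316 in Rroid-deficient cells, against 358, 271 and 245 in wildtype cells and was not called (log2 fold change 0.16, adjusted p = 0.479 by limma).

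Tgfbr3 encodes betaglycan, a co-receptor for TGF-beta and inhibins, and all 4 of its deep intronic peaks were called lower. The peak at chr5:107598970-107599878 had 26.5, 20.9 and 31.4 in Rroid-deficient cells, against 179, 118 and 182 in wildtype cells (log2 fold change -2.55 ± 0.27 SE, adjusted p = 2.92e-06 by limma). The peak at chr5:107606027-107607205 had 147, 87.6 and 104 in Rroid-deficient cells, against 441, 338 and 398 in wildtype cells (log2 fold change -1.81 ± 0.19 SE, adjusted p = 2.83e-06 by limma). Together the 4 peaks averaged 380 ± 74.2 in Rroid-deficient cells and 1086 ± 150 in wildtype cells (SD, n = 3 each). No 1 library decided these calls.

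Tox and Zbtb16 are transcription factors of lymphocyte development, Tox an HMG-box factor needed for NK cells and Zbtb16 the factor PLZF of innate-like lymphocytes. Of the deep intronic peaks of Tox 4 of 7 were called lower, as were 8 of all 14 peaks in the gene. The peak at chr4:6719116-6720897 had 171, 149 and 195 in Rroid-deficient cells, against 263, 337 and 462 in wildtype cells (log2 fold change -1.01 ± 0.19 SE, adjusted p = 7.69e-04 by limma). The start-site peak of Tox had 1949, 2026 and 2043 in Rroid-deficient cells, against 2524, 3016 and 3081 in wildtype cells (log2 fold change -0.51 ± 0.09 SE, adjusted p = 5.15e-04 by limma). Zbtb16 had 3 of 4 deep intronic peaks called lower, with log2 fold changes of -0.67 to -1.20, and its start-site peak was lower as well (log2 fold change -0.85 ± 0.11 SE, adjusted p = 1.64e-05 by limma). Zbtb16 was no longer a concordant host without wildtype library 1 or 2 or without libraries 4 and 6. Both start sites moved in the direction of the deep peaks of the same gene.

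**Figure D4:**
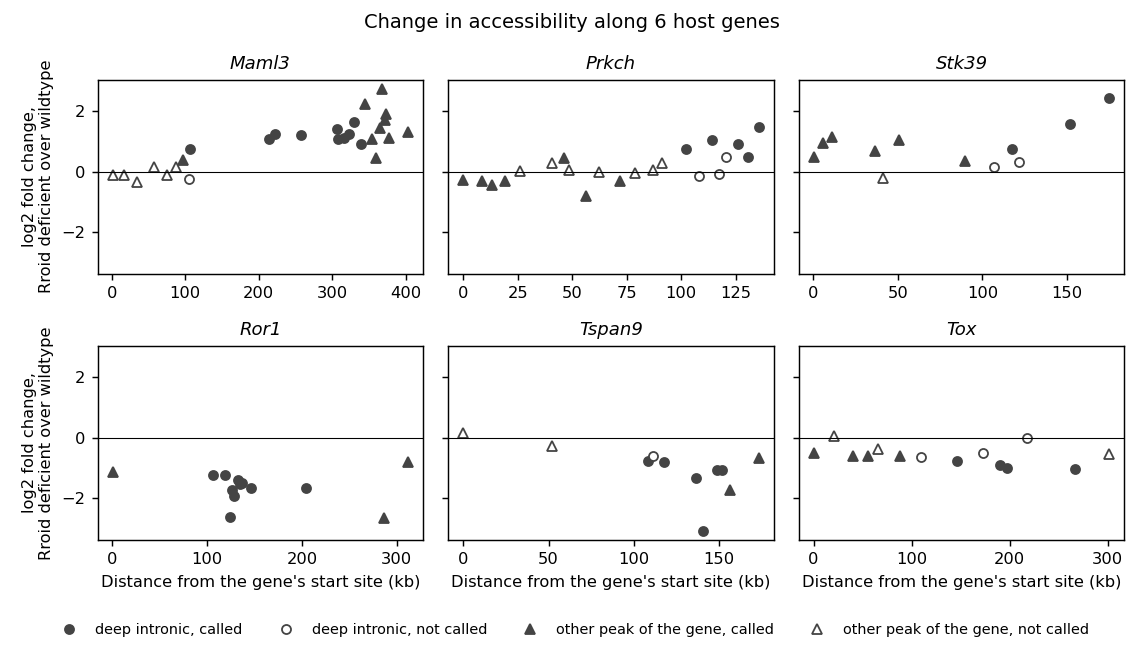
Log2 fold change, Rroid deficient over wildtype, of every peak annotated in 6 hosts against its distance from the host's start site in kb, with deep intronic peaks marked and filled points for calls. Ror1 is below 0 at all 13 peaks, Maml3 has 20 called peaks of 27 above 0, and Prkch has 6 called on each side.

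Lhfp, a gene named for a fusion in lipomas, had all 3 deep intronic peaks called lower, as at chr3:52989107-52990167 with 337, 496 and 372 in Rroid-deficient cells, against 721, 912 and 861 in wildtype cells (log2 fold change -1.06 ± 0.14 SE, adjusted p = 3.94e-05 by limma). Its first deep intronic peak lies 1167 kb from the last one of Maml3 on chromosome 3, whose peaks moved the other way. Snx29, a sorting nexin gene, had 26 deep intronic peaks, and its 5 calls were all lower and all in intron 13, led by chr16:11461418-11462283 with 504, 635 and 609 in Rroid-deficient cells, against 1031, 954 and 948 in wildtype cells (log2 fold change -0.75 ± 0.11 SE, adjusted p = 1.21e-04 by limma). Ppm1h, a protein phosphatase, had 4 of 6 called lower, and the strongest had 214, 229 and 237 in Rroid-deficient cells, against 780.0, 585 and 609 in wildtype cells (log2 fold change -1.52 ± 0.14 SE, adjusted p = 6.02e-07 by limma). In contrast, of the 12 nearer intronic peaks of Ppm1h 7 were called higher and 1 lower. Diaph3, a formin that builds actin filaments, had 6 of 16, the class IIa histone deacetylase gene Hdac9 5 of 10, the endosomal sodium-proton exchanger Slc9a9 4 of 10, the SOX factor gene Sox5 3 of 6, and Lmo7, a protein of cell junctions, 3 of 4. Without wildtype library 3 there were 3 calls left in Diaph3, 1 in Hdac9 and 2 in Lmo7, and Lhfp had 2 without wildtype library 2 or Rroid-deficient library 6. Without Rroid-deficient library 5, Snx29 and Sox5 were no longer concordant, although 3 or more of their lower calls were left.

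Calls at start sites and nearer introns of the concordant hosts were counted as well. Of the 25 higher hosts 18 had a peak within 1 kb of the start site, which was higher in 4, lower in 3 and not called in 11. Of the 21 lower hosts 15 had one, which was lower in 5, higher in none and not called in 10. Their other intronic peaks, all within 100 kb of a start site, numbered 142 in higher hosts, with 40 called higher and 12 lower. In lower hosts they numbered 90, with 10 called higher and 32 lower, and most of these 10 lay in Ppm1h. Over all intronic peaks within 100 kb of a start site 14.3% were called higher and 12.7% lower. A share over all start-site peaks is not given, so the start-site counts have no background beside them.

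Calls in both directions inside 1 gene were found at 27 hosts with 2 or more calls. Wwox, an oxidoreductase gene at a fragile site, had 26 deep intronic peaks, all in intron 8, of which 7 were called higher and 3 lower. Its peak at chr8:117412099-117414529 had 1321, 1286 and 1296 in Rroid-deficient cells, against 914, 1039 and 950.4 in wildtype cells (log2 fold change 0.43 ± 0.10 SE, adjusted p = 0.00337 by limma). Its peak at chr8:117593899-117594705 had 235, 237 and 233 in Rroid-deficient cells, against 373, 457 and 396 in wildtype cells (log2 fold change -0.79 ± 0.14 SE, adjusted p = 4.15e-04 by limma). The first is higher and the second lower with no overlap. For 11 of the 26 the nearest start site was that of Maf, a transcription factor, and of these 3 were called higher and 1 lower.

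Rora, the nuclear receptor ROR alpha known for its part in group 2 innate lymphoid cells, had 16 deep intronic peaks with 3 called higher and 4 lower, and none of the 16 had the Rora start site as its nearest. The strongest, at chr9:68968838-68969738 in intron 1, had 129, 96.1 and 108 in Rroid-deficient cells, against 435, 547 and 452 in wildtype cells (log2 fold change -2.10 ± 0.16 SE, adjusted p = 1.06e-07 by limma). A higher call lay at chr9:68873698-68874317 with 91.5, 72.3 and 115 in Rroid-deficient cells, against 40.1, 21.8 and 23.4 in wildtype cells (log2 fold change 1.70 ± 0.31 SE, adjusted p = 5.82e-04 by limma). The Rora peak with the largest signal had 3241, 3674 and 3204 in Rroid-deficient cells, against 3518, 3817 and 3604 in wildtype cells and was not called (log2 fold change -0.11 ± 0.08 SE, adjusted p = 0.334 by limma), and its groups overlapped. Akap13, an anchor of protein kinase A, had 5 higher and 4 lower of 16, and Nrxn3, a neurexin known from synapses, 3 and 3 of 16. Among the other hosts with the most deep intronic peaks, Arid1b, a subunit of the BAF remodelling complex, had 3 higher and 3 lower of 22, Pde4d, a cAMP phosphodiesterase, 2 and 1 of 20, and Nav2, a neuron navigator gene, 1 and 3 of 16.

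The hosts were also grouped by role in lists chosen with results of these data known, whose counts stand beside 13.8% higher and 12.1% lower over all peaks. Transcription factors of lymphocytes, a list that also takes in the coactivator gene Maml3, were hosts in 15 cases with 81 peaks. Of these peaks 23 were called higher and 12 lower, with a median log2 fold change of -0.01. Of the 23 higher calls 10 lay in Maml3 and 6 in Runx2, and of the 12 lower calls 4 lay in Tox, 4 in Rora and 3 in Zbtb16. Kinases, phosphatases and adaptors gave 18 hosts and 108 peaks, with 21 higher and 6 lower and a median of 0.11. Besides Prkch and Stk39 the smallest p of the list was in Cblb, a ubiquitin ligase that restrains lymphocyte activation, whose peak at chr16:52132665-52133697 had 999, 1022 and 1043 in Rroid-deficient cells, against 391.8, 486 and 448 in wildtype cells (log2 fold change 1.21 ± 0.11 SE, adjusted p = 8.39e-07 by limma). At the kinase gene Fyn the peak with the largest signal had 1460.0, 1791 and 1464 in Rroid-deficient cells, against 1491, 1551 and 1428 in wildtype cells and was not called (log2 fold change 0.07 ± 0.10 SE, adjusted p = 0.644 by limma).

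Regulators of the cytoskeleton and small GTPases gave 14 hosts and 71 peaks, with 8 higher and 4 lower and a median of 0.01. Dock2, the exchange factor for Rac in blood cells, had a called peak with 273, 306 and 258 in Rroid-deficient cells, against 171, 193 and 166 in wildtype cells (log2 fold change 0.65 ± 0.15 SE, adjusted p = 0.00455 by limma). Surface receptors, adhesion molecules and channels gave 13 hosts and 57 peaks, with 7 higher and 12 lower and a median of -0.08, and 4 of the lower calls lay in Tgfbr3 and 4 in Slc9a9. The phospholipid flippase gene Atp10a had a lower peak with 1049, 1145 and 1185 in Rroid-deficient cells, against 1543, 1772 and 1972 in wildtype cells (log2 fold change -0.64 ± 0.10 SE, adjusted p = 2.26e-04 by limma). Chromatin and RNA regulators gave 15 hosts and 86 peaks, with 11 higher and 9 lower and a median of -0.01. Chd7, a chromatin remodeller, held 1 strong call beside its peak of largest signal without one: chr4:8761604-8762549 had 822, 962 and 880.2 in Rroid-deficient cells, against 386, 461 and 432 in wildtype cells (log2 fold change 1.06 ± 0.12 SE, adjusted p = 5.11e-06 by limma), and chr4:8737820-8740048 had 2118, 2372 and 2167 in Rroid-deficient cells, against 2279.5, 2235 and 2182 in wildtype cells (log2 fold change -0.01 ± 0.08 SE, adjusted p = 0.945 by limma). Genes best known from neurons or fragile sites gave 24 hosts and 132 peaks, with 19 higher and 19 lower and a median of -0.06, shares of 14.4% each way that lie near those of all peaks.

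Single peaks with the largest changes lay outside these hosts as well. Among peaks at or above the median level of the deep intronic peaks, with 1 per host, the largest rise was in Rapgef4, which encodes the cAMP sensor Epac2, at chr2:72021622-72022436, with 207, 245 and 216 in Rroid-deficient cells, against 38.3, 16.0 and 17.6 in wildtype cells (log2 fold change 3.27 ± 0.30 SE, adjusted p = 5.25e-07 by limma). Camta1, a transcription activator, had 251, 228 and 155 in Rroid-deficient cells, against 51.6, 42.0 and 34.2 in wildtype cells (log2 fold change 2.27 ± 0.24 SE, adjusted p = 3.02e-06 by limma). Clec16a had a peak whose nearest start site is that of Socs1, a suppressor of cytokine signalling, with 427, 452 and 374 in Rroid-deficient cells, against 202, 102 and 84.0 in wildtype cells (log2 fold change 1.79 ± 0.24 SE, adjusted p = 3.20e-05 by limma). The ranges of the groups did not meet at these 3. On the lower side, after Tspan9, Ror1 and Rora, came Magi2, with 58.3, 33.3 and 35.1 in Rroid-deficient cells, against 178, 119 and 219.8 in wildtype cells (log2 fold change -2.01 ± 0.27 SE, adjusted p = 4.18e-05 by limma), and Plppr1, with 154, 125 and 144 in Rroid-deficient cells, against 547, 504 and 584 in wildtype cells (log2 fold change -1.95 ± 0.15 SE, adjusted p = 7.09e-08 by limma). Rnls held both kinds, 95.3 kb apart: a higher peak in intron 2 with 199, 164 and 143 in Rroid-deficient cells, against 53.4, 55.4 and 36.1 in wildtype cells (log2 fold change 1.79 ± 0.24 SE, adjusted p = 2.87e-05 by limma) and a lower one in intron 3 with 67.6, 46.6 and 83.4 in Rroid-deficient cells, against 258, 217 and 184 in wildtype cells (log2 fold change -1.75 ± 0.23 SE, adjusted p = 2.67e-05 by limma). Further peaks of this ranking had log2 fold changes of 1.90 to 2.19 in Slc39a11, Phkb and Galnt14 and of -1.90 to -1.61 in Col19a1 and Sash1.

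Where the nearest start site was not the host's, groups of peaks shared 1 neighbour. Besides the peaks of Maml3 near Mgst2 and of Tspan9 near Tspan11, 5 peaks near Themis, a gene of T cell selection, had 3 higher and none lower, and their host was Ptprk, a receptor phosphatase gene that was no longer a concordant host without Rroid-deficient library 4 or 6 or wildtype library 1 or 2. Of the T cell marker peaks given above, those at Cd3g and Cd5 were called higher too, and that at Trat1 was not called. The part of these markers in this was not tested. The 5 peaks near Cd226, an activating receptor of NK cells, lay in Dok6 and Rttn and had 2 lower and none higher. No gene of the NK, T cell, myeloid or ILC2 and ILC3 marker lists hosted a deep intronic peak, and 1 of 6 B cell markers hosted 1 peak, which was not called.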

How the data were processed

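ATAC-seq values came from 1 deposited table of 51775 consensus peaks. The build listed is mm9. BWA, bcl2fastq 2.16.0, Trimmomatic 0.32, MACS2 2.1.0, HOMER, DiffBind and R 3.1.1 are the tools in the submitters' processing notes, which state no settings. Whether reads were shifted to the cut site or duplicates removed is not given in the sources used here. Deposited values are a normalized signal, 1 value per peak and library. Within a tolerance of 0.01 the values are whole reads divided by 1 factor per library. Column names gave the genotype. The numbers 1, 2 and 3 of the wildtype columns occur in titles, while 4, 5 and 6 of the Rroid-deficient columns do not, so no samples were paired.

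The design foresaw counts or normalized values. Since the unit was a signal, limma 3.58.1 was fitted with a trend to log2(value + 1) over all peaks and all 6 libraries. P-values were adjusted over the whole table by Benjamini-Hochberg, and a call needed an adjusted p under 0.05. Fold changes on that scale understate changes of low peaks. The fit was tested on simulated data. A host is the gene of the transcript that the intron annotation names. It was found through the RefSeq gene table for 1747 peaks, through the deposited table's own names for others, and for 1 peak not at all. Shifting the distance limit, other scalings, edgeR 4.0.16 and DESeq2 1.42.0 on the recovered reads, stricter calls and leaving out libraries were the alternatives.

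Named are up to 12 hosts per direction with 3 or more concordant calls, the 10 largest and 10 smallest changes at or above the median level of the deep intronic peaks with 1 per host, the 8 hosts with the most peaks, up to 3 called and 2 uncalled peaks per list, up to 4 mixed hosts, and start-site peaks of concordant hosts. Zbtb16, Kcnh1, hosts with all peaks called and the Wwox and Rora examples other than the strongest Rora peak were picked after seeing values. So were the chromosomes named and the neighbours by nearest start. The members and lists were chosen with earlier results of these data known. Not every item that the naming rule gives is reported here.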

Additional observations from a re-analysis of the deposited data

How the results depend on the processing

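No paired analysis was possible because the Rroid-deficient columns carry the numbers 4, 5 and 6, which no wildtype column shares. Counts are given as higher and lower. Against 291 and 239 deep intronic peaks and 25 and 21 concordant hosts, only peaks at or above the median level of all peaks gave 115 and 127 peaks and 4 and 6 hosts (3525 higher over all peaks), and an adjusted p under 0.01 gave 188 and 156 peaks, 11 and 10 hosts, and 4365 and 3265 over all peaks. A distance limit of 50 kb gave 718 and 646 peaks and 55 and 52 hosts, and one of 200 kb gave 65 and 53 peaks and 1 and 5 hosts. With the host as the nearest start site there were 174 and 149 peaks and 13 and 10 hosts. With 2 concordant calls there were 54 and 45 hosts. The median level, the distance limits and the nearest start site change by construction which peaks are counted, and the other settings change only the rule for a call or a host. Without libraries 4 and 6, chosen after seeing the data, 134 deep intronic peaks and 6 hosts were higher, and all peaks gave 3728 and 3653. Leaving out 1 library gave 13 to 25 higher hosts and, over all peaks, 4039 to 6304 lower calls. The cause of these shifts was not tested.

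edgeR gave 293 and 242 peaks with 25 and 22 hosts, and DESeq2 279 and 242 peaks with 23 and 21 hosts. Scaling to total reads moved the median of all peaks to 0.05 and gave 30 and 18 hosts, and cyclic loess, added after seeing the data, gave 280 and 285 peaks. A minimum of 10 in 3 libraries removed 0 peaks. Over 17 settings the 146 named peaks gave 2421 values: at the 134 called peaks 2084 kept the call and direction and 133 lost the call, at the 12 others 202 stayed without a call and 2 gained one, and 0 turned. Most of these peaks were named because they were called, and several settings, such as other pseudocounts, differ little from the main fit. The pooled count therefore says little about single settings. At an adjusted p under 0.01, 23 of the named peaks lost the call, and 17 did without wildtype library 3. The lowest read count of a deep intronic peak in a library was 4.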
